A study of Mus musculus with 39 samples.

Results

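Notch signalling between neighbouring cells was described through 10 genes in 39 RNA-seq libraries of *Stat3* null and WT mouse epiblasts and epiblast stem cells (EpiSCs). The 10 genes were *Notch1*, *Notch2* and *Notch3* (receptors), *Dll1* and *Dll3* (ligands), *Lfng* (a fringe glycosyltransferase) and *Hes1*, *Hes3*, *Hes6* and *Hey1* (basic helix-loop-helix transcription factors). They were chosen by symbol out of the 47643 genes listed, with the levels of these same libraries by stage and genotype already known, so the counts of members called below are a description and support nothing by themselves. Each symbol was found in both count tables.

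*Stat3* encodes a transcription factor activated downstream of LIF and IL6 receptors. Single epiblasts were taken on the CD1 background from intercrosses of *Stat3* heterozygous mice, freed of extraembryonic ectoderm and visceral endoderm by hand, and sequenced 1 embryo per library. The E5.5 epiblasts gave 4 null and 2 WT libraries, those of E6.5 gave 8 null and 9 WT ones and those of E7.5 gave 3 null and 9 WT ones, the stages being days of embryonic development that run from the early postimplantation epiblast into gastrulation. EpiSCs, the cultured counterpart of the late epiblast, were represented by 2 null and 2 WT lines, each a separate line, grown in N2B27 with FGF2, Activin A and the tankyrase inhibitor XAV-939 on fibronectin. Null samples carried no intact *Stat3* allele in any cell, and the labels name no other allele or treatment in any group. Epiblast and EpiSC libraries were made with different kits, so their levels stand side by side here without a test.

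A Notch receptor binds a Delta or Jagged ligand on the adjacent cell, is cut by an ADAM protease and then by gamma-secretase, and releases an intracellular part that joins RBPJ and Mastermind proteins on DNA. *Hes* and *Hey* genes are the best known targets of that complex and encode repressors. In the gastrulating embryo the pathway is known for the segmentation clock of the presomitic mesoderm, which uses *Dll1*, *Dll3*, *Lfng* and *Hes7*, and for the upkeep of neural progenitors. DLL3 differs from DLL1 in that it does not activate Notch on neighbouring cells, and LFNG adds sugars to Notch that alter how it responds to ligands.

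The stretches before the start sites of *Notch1*, *Lfng* and *Dll1* are shown because these genes rose together between E6.5 and E7.5 in WT epiblasts. They come from RefSeq on build GRCm38.p6, and 7 of the 10 members had an entry. *Hes1*, *Hes3* and *Hey1* had none. Capitals mark matches, on either strand, to the RBPJ core TGGGAA, the N box CACNAG and the class C site CACGNG, the last 2 being strings of letters that HES and HEY proteins are known to bind. The *Notch1* stretch lay at chr2:26503823-26504072 on the minus strand, the *Lfng* stretch at chr5:140607091-140607319 on the plus strand and the *Dll1* stretch at chr17:15376933-15377182 on the minus strand, each read in the direction of its gene.
Notch1: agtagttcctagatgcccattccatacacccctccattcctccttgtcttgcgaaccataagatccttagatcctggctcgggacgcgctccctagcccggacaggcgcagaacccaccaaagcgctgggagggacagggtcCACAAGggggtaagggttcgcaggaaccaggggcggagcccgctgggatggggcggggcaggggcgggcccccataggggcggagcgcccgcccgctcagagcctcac
Lfng: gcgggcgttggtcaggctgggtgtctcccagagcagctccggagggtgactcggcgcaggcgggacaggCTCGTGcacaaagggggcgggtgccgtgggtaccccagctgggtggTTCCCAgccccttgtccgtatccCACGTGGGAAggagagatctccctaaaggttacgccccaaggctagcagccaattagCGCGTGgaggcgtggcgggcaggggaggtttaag
Dll1: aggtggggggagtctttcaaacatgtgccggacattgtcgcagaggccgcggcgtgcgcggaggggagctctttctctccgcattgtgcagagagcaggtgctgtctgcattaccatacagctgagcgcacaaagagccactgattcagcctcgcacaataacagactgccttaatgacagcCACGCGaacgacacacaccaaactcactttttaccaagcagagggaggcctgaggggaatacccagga

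The *Lfng* stretch held 2 matches to the RBPJ core, 135 and 108 bases before the RefSeq start, and the nearer one overlapped a class C site, CACGTG. It held 3 class C sites in all and 1 N box, which overlapped the farthest class C site. *Notch1* held 1 N box and *Dll1* 1 class C site, and neither held the RBPJ core in this window. The *Notch1* window lay inside the annotated gene, before an internal RefSeq start. *Dll1* had another window, at chr17:15375824-15376073, which lay inside its annotated gene and is not printed. It also held 1 class C site and no RBPJ core. Among 32851 promoter windows of 250 bases, 21.6% held the RBPJ core, 36.7% the N box and 23.5% the class C site. The STAT site TTCNNNGAA was in 7.02% of all windows and in none of the 9 windows of the members. A match of letters is not a bound site, and its absence says only that these letters are not in the window.

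The libraries held 22941210 to 79013960 counts in epiblasts and 63445877 to 127583699 in EpiSCs, so that 3 counts corresponded on average over the libraries of a group to 0.0267 to 0.109 CPM, that is, counts scaled to a library total of 1000000. *Stat3* itself was 49.4 and 39.3 CPM in the E5.5 WT epiblasts and 9.21, 15.3, 22.7 and 20.2 CPM in the E5.5 null epiblasts. At E6.5 it ran from 5.84 (median 11.6) to 27.2 CPM in WT and from 1.41 (median 3.89) to 7.59 CPM in null epiblasts, and at E7.5 from 4.80 (median 12.1) to 25.3 CPM in WT against 1.48, 1.29 and 1.22 CPM in null. EpiSCs had 17.8 and 23.0 CPM in WT and 3.17 and 3.52 CPM in null lines. The genotypes overlapped only at E6.5. Some libraries had markers that went against their labels. The library labelled E5.5 null replicate 1 had 0.654 CPM of the epiblast gene *Pou5f1* and a summed level of 810 CPM for 6 extraembryonic ectoderm genes. E6.5 null replicate 1 had 643 CPM of the same 6 genes, against 3.83 to 18.3 CPM in E6.5 WT epiblasts, together with 178 CPM of *Pou5f1*. E7.5 WT replicate 3 had markers within the E6.5 WT range. Its 6 epiblast genes summed to 1282 CPM, against 1012 to 1320 CPM in E6.5 WT epiblasts. The other E7.5 WT epiblasts had 265 to 615 CPM of these genes. The mesoderm gene *T* was 5.45 CPM in replicate 3 and 78.5 to 237 CPM in those others. In whole epiblasts, fewer cells of a type and less RNA per cell cannot be told apart.

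*Notch1*, *Dll1*, *Dll3*, *Lfng* and *Hes3* rose between E6.5 and E7.5 in WT epiblasts, and *Notch2* rose by less. In 8 of the 9 E7.5 WT epiblasts the first 4 of these genes stood above every E6.5 WT epiblast. E7.5 WT replicate 3 lay within the E6.5 range for each of these 4. A call required an absolute log2 fold change over 1 and a Benjamini-Hochberg adjusted p under 0.05 in edgeR's quasi-likelihood test over all genes, and every adjusted p below comes from that test unless another is named. By this rule 5 of the 10 members were called higher at E7.5 than at E6.5 in WT, and none lower, against 5.74% higher and 3.09% lower of the 17191 genes tested. The members' median log2 fold change was 1.51 and that of all genes tested 0.01. The same 5 were called without replicate 3.

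**Figure D1:**
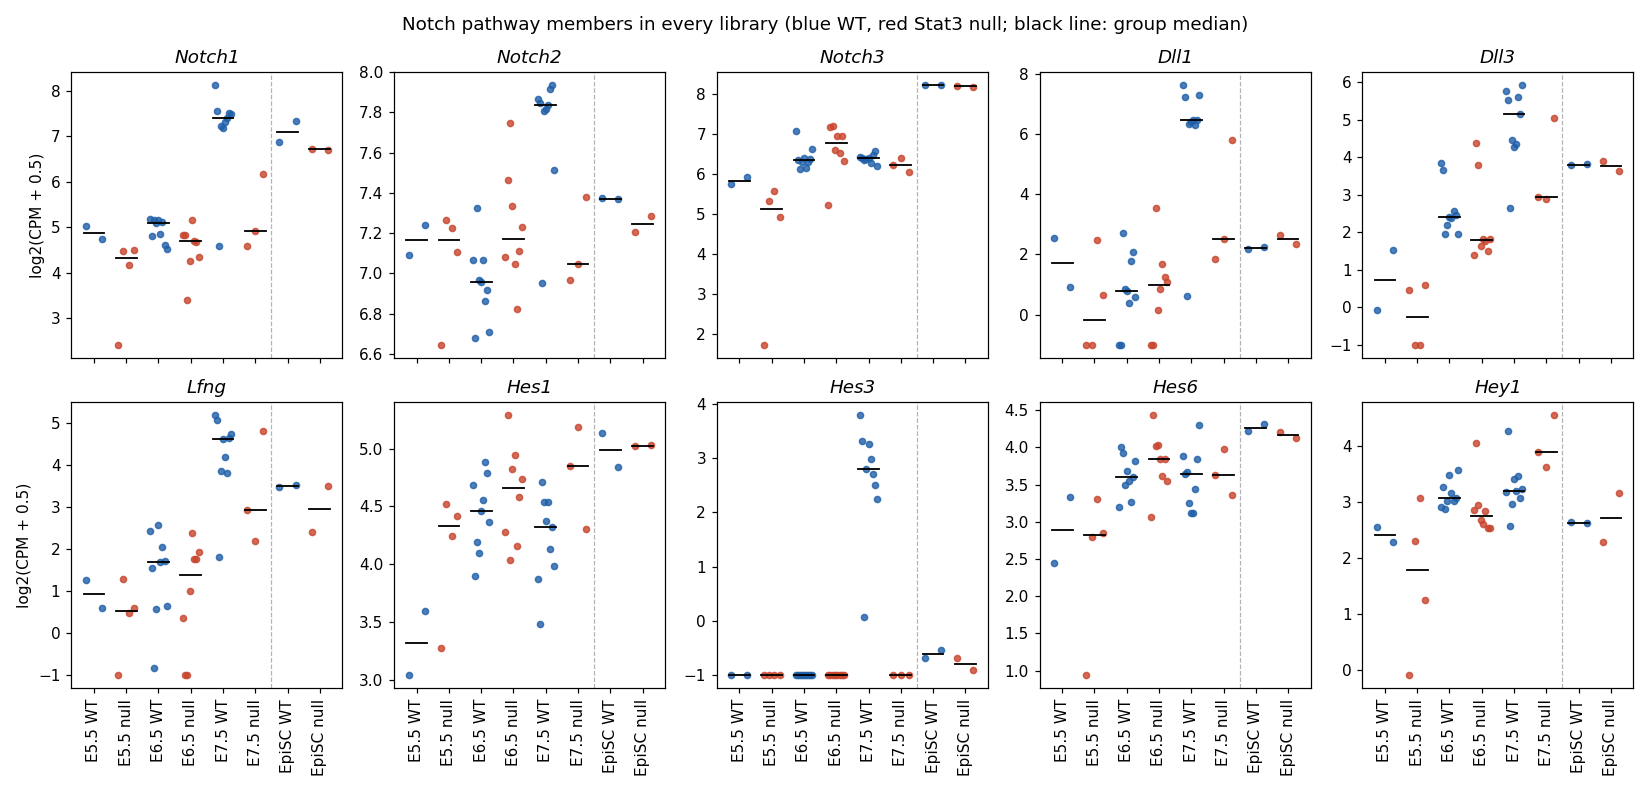
Level of each member in every library, as log2(CPM + 0.5), by group, with WT in blue, *Stat3* null in red and the group median as a black line. The vertical dashed line separates epiblasts from EpiSCs, which were made with another kit. In E7.5 WT, 8 points stand high for *Notch1*, *Dll1*, *Dll3*, *Lfng* and *Hes3* and 1 point, replicate 3, stands low, and *Hes3* is at 0 CPM in the 3 E7.5 null epiblasts.

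Among the receptors, *Notch1* had 30.6 ± 5.21 CPM (SD, n = 9) in E6.5 WT epiblasts, from 22.3 to 36.0 CPM. At E7.5 the 9 WT epiblasts had 279, 186, 23.4, 149, 145, 157, 168, 182 and 179 CPM for replicates 1 to 9. All but replicate 3 were above the E6.5 range, so the groups overlapped through that 1 library. The log2 fold change was 2.32 (SE 0.28, adjusted p = 2.4e-05).

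*Notch2* had 102 to 160 CPM (median 124) in E6.5 WT and 124 to 245 CPM (median 228) in E7.5 WT epiblasts, with 8 of 9 E7.5 libraries above the E6.5 range. Its log2 fold change of 0.70 (SE 0.11, adjusted p = 0.000127) passed the test but lay under the fold limit. *Notch3* had a median of 80.8 CPM at E6.5 and 83.0 CPM at E7.5 in WT, and its log2 fold change was -0.13 (SE 0.10, adjusted p = 0.373).

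*Dll1*, the ligand that activates Notch in trans, was nearly absent from E6.5 WT epiblasts, with 0 to 6.05 CPM (median 1.21). At E7.5 the WT replicates 1 to 9 had 197, 150, 1.04, 80.2, 83.9, 87.5, 77.7, 88.1 and 156 CPM. The 8 libraries other than replicate 3 were thus at least 77.7 CPM, with no value between. This was a log2 fold change of 5.65 (SE 0.93, adjusted p = 0.000324).

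*Dll3* ran from 3.37 (median 4.79) to 14.0 CPM in E6.5 WT epiblasts and was 54.1, 45.4, 5.80, 21.4, 18.8, 19.8, 47.8, 34.9 and 60.3 CPM in E7.5 WT replicates 1 to 9. Replicates 4, 5 and 6 were the lowest of the 8 libraries that had left the E6.5 range. The log2 fold change was 2.34 (SE 0.40, adjusted p = 0.000313). *Lfng* rose with the ligands, from 0.0625 to 5.41 CPM (median 2.72) at E6.5 to 35.6, 33.2, 2.99, 13.9, 23.9, 17.5, 13.4, 24.2 and 25.8 CPM in the same order at E7.5. Its log2 fold change was 2.91 (SE 0.54, adjusted p = 0.000632), and only replicate 3 fell in the E6.5 range.

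*Hes3*, a repressor known from neural progenitors, had 0 counts in all 9 E6.5 WT epiblasts. It had 13.3, 9.38, 0.557, 6.41, 9.08, 7.39, 6.04, 5.19 and 4.22 CPM in E7.5 WT replicates 1 to 9, so the groups did not overlap. Taking 3 counts per library as the ceiling compatible with no count, its mean was at least 89.4-fold higher at E7.5 (adjusted p = 4.7e-06).

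The remaining transcription factors were level between these stages. *Hes1* had a median of 21.5 CPM at E6.5 and 19.5 CPM at E7.5 in WT, with a log2 fold change of -0.29 (SE 0.17, adjusted p = 0.230). *Hes6*, which opposes HES1, had medians of 11.6 and 12.02 CPM (log2 fold change -0.09, SE 0.17, adjusted p = 0.752). *Hey1* had medians of 7.93 and 8.67 CPM (log2 fold change 0.08, SE 0.19, adjusted p = 0.813). For these 3 genes the E6.5 and E7.5 ranges overlapped.

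Per kilobase of exon, the order of the members changed between the stages. In E6.5 WT epiblasts *Notch2* led with 11.5 ± 1.62 CPM per kb (SD, n = 9), followed by *Hes1* with 10.6 and *Notch3* with 10.6, and these 3 lay within 1 SD of each other. *Hes6* stood lower at 6.61, and *Hey1*, *Dll3* and *Notch1* were together at 2.62, 2.21 and 2.15 CPM per kb. *Lfng* had 1.06, *Dll1* 0.449 and *Hes3* 0 CPM per kb. In E7.5 WT epiblasts *Dll1* led with 24.3 ± 13.6 CPM per kb (SD, n = 9), and *Notch2*, at 19.9, lay within the spread of *Dll1*. *Dll3* at 12.02, *Notch1* at 11.5, *Notch3* at 10.3, *Hes1* at 9.17, *Lfng* at 8.45 and *Hes6* at 6.60 CPM per kb formed a run in which each differed from its neighbour by less than the larger SD. *Hes3* had 3.49 and *Hey1* 2.94 CPM per kb.

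The 47 other pathway genes, listed with earlier results of these data known, showed 7 calls higher and 3 lower among the 43 tested between WT E6.5 and E7.5, with a median log2 fold change of 0.27. Among Hes and Hey factors, the clock gene *Hes7* rose from a median of 0 CPM (highest 0.985) to 8.37 CPM (0.228 to 24.3), a log2 fold change of 5.56 (SE 1.03, adjusted p = 0.000603), and *Hey2* rose by 4.03 (SE 1.26, adjusted p = 0.0223). Among ligands, *Jag1* rose by 1.43 on the log2 scale and the non-canonical *Dlk1* from 2.72 to 18.5 CPM (log2 fold change 2.75), whereas *Jag2* fell from 9.49 to 3.30 CPM (log2 fold change -1.91). The coactivator *Maml2* rose by 1.87 on the log2 scale, the corepressor *Tle2* by 3.14 and *Nrarp*, a target that limits Notch output, by 1.03. *Tle4* and *Dtx1* fell by 1.18 and 1.08 on the log2 scale. None of the 9 protease and gamma-secretase genes, 4 ligand ubiquitin ligases and 4 other fringe and O-glycosylation genes was called.

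**Figure D2:**
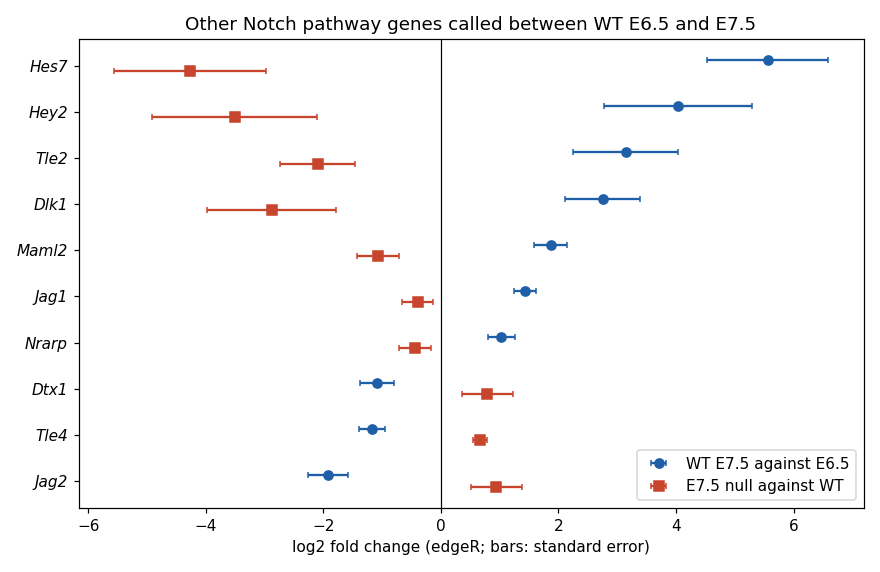
Log2 fold changes, with standard errors, of the 10 other Notch pathway genes called between WT E6.5 and E7.5 epiblasts (blue circles), beside their values for E7.5 null against WT (red squares), which share the E7.5 WT libraries. *Hes7* has the highest blue value, 5.56, and *Jag2* the lowest, -1.91. None of the 10 was called in the red comparison with all libraries.

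Of 8 presomitic and paraxial mesoderm genes, 2 were called higher at E7.5 in WT and 4 of the 6 tested were not. The summed level of the 8 (*T*, *Tbx6*, *Msgn1*, *Mesp1*, *Mesp2*, *Ripply2*, *Meox1* and *Tcf15*) was 9.50 to 83.8 CPM (median 36.0) in E6.5 WT and 10.2 to 383 CPM (median 272) in E7.5 WT epiblasts, and the lowest E7.5 value was that of replicate 3. The genes called were *Tbx6* and *Meox1*. *T*, the most abundant gene of the list, had 5.45 to 237 CPM in E7.5 WT epiblasts and a log2 fold change of 2.61 (SE 0.99, adjusted p = 0.0647), so it did not pass. Of 3 neural progenitor genes tested *Pax6* and *Sox1* were called higher. The 9 visceral endoderm genes summed to 47.3 to 5226 CPM (median 166) in E6.5 WT and 373 to 4292 CPM (median 1629) in E7.5 WT epiblasts, with all 9 detected throughout. The 6 epiblast genes summed to 1012 to 1320 CPM in E6.5 WT and 265 to 1282 CPM in E7.5 WT epiblasts, the 1282 CPM being that of replicate 3. The part of these differences in the members' values was not tested.

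**Figure D3:**
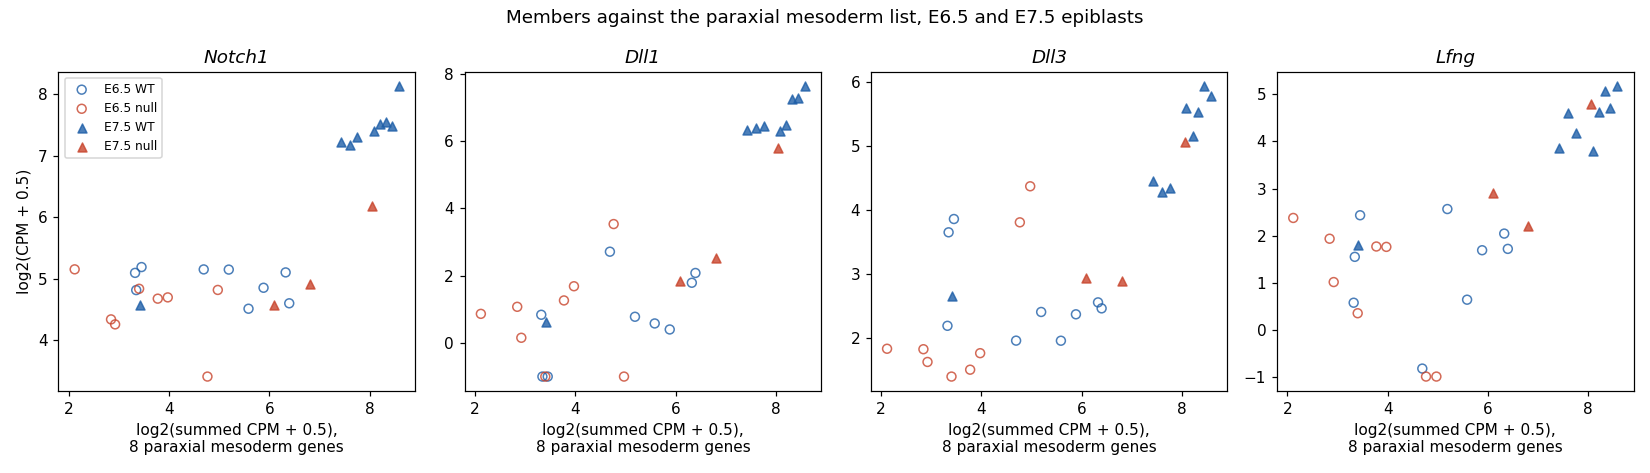
*Notch1*, *Dll1*, *Dll3* and *Lfng*, each as log2(CPM + 0.5), against the summed level of 8 presomitic and paraxial mesoderm genes, as log2(summed CPM + 0.5), in E6.5 (open circles) and E7.5 (triangles) epiblasts, WT blue and *Stat3* null red. 8 WT triangles stand at the upper right of each panel, the low WT triangle is replicate 3, and the rightmost red triangle is E7.5 null replicate 3, at a summed level of 265 CPM.

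Within the 8 E7.5 WT epiblasts other than replicate 3, which was left out because it stood apart from the others, the log2 level of each member was set against the log2 summed level of the paraxial mesoderm list and of the 7 neural progenitor genes, 20 relations in all, with p-values from exact permutation tests, two-sided, adjusted over the 20. *Notch1* followed the paraxial mesoderm list (Pearson r = 0.821, exact permutation p = 0.00308, adjusted 0.0284, Spearman rho = 0.905, p = 0.00456, adjusted 0.0429), and r was 0.775 without the 2 libraries farthest from the median of the list. *Dll3* gave r = 0.918 (exact permutation p = 0.00367, adjusted 0.0284) and rho = 0.833 (p = 0.0154, adjusted 0.0513), and r was 0.878 without the 2 farthest. *Hes6* gave r = 0.854 (exact permutation p = 0.00861, adjusted 0.0430) and rho = 0.857 (p = 0.0107, adjusted 0.0429), and r was 0.843 without them. These 3 rose with the list among the 8 libraries. All 8 were past the E6.5 WT range for *Notch1* and *Dll3*. For *Hes6* they overlapped it, with 8.19 to 19.3 CPM against 8.70 to 15.6 CPM at E6.5. In the same 8 libraries the 6 epiblast genes summed to 265 to 615 CPM and the 9 visceral endoderm genes to 691 to 4292 CPM. The paraxial and the epiblast sums were both lowest in replicate 4 and rose in the same order through replicates 5, 6, 7 and 8. The part of the epiblast and visceral endoderm genes in the relations of the members was not tested.

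*Dll1* gave r = 0.808 (exact permutation p = 0.0204, adjusted 0.0780) and rho = 0.857 (p = 0.0107, adjusted 0.0429), and *Hes1* ran the other way, with r = -0.777 (exact permutation p = 0.0234, adjusted 0.0780) and rho = -0.881 (p = 0.00724, adjusted 0.0429). Without the 2 farthest libraries r was 0.834 for *Dll1* and -0.706 for *Hes1*. *Lfng* (r = 0.692, exact permutation p = 0.0628, adjusted 0.157, rho = 0.810, p = 0.0218, adjusted 0.0622) did not pass either correction. *Notch2*, *Notch3*, *Hes3* and *Hey1* had Pearson coefficients of -0.159 to 0.290, with adjusted exact permutation p-values of 0.638 to 0.934, and Spearman coefficients of 0.0952 to 0.262, with 0.715 to 0.882. Of the relations with the neural list, that of *Notch1* alone passed (r = 0.750, exact permutation p = 0.00427, adjusted 0.0284, rho = 0.857, p = 0.0107, adjusted 0.0429), with r = 0.669 without the 2 farthest. The most abundant genes of the lists were *T* and *Nes*.

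In E7.5 *Stat3* null epiblasts, *Hes3* was the single member called against E7.5 WT. The other members that had risen in WT had lower medians in null, and with all libraries none of them passed the test. Null replicate 3 had the highest value of the 3 null epiblasts for each of them. Of the 10 members 0 were called higher and 1 lower, against 0.0813% and 1.09% of the 19680 genes tested, and the members' median log2 fold change was -0.58 beside -0.02 for all genes. Without E7.5 WT replicate 3, *Notch1* was called lower as well, and without E7.5 WT replicate 2 *Hey1* was called higher. DESeq2, which the study used, called 73 genes higher and 917 lower, and *Notch1* and *Hes3* were the members among them. The WT libraries are the same as in the comparison of stages.

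*Hes3* had 0 counts in the 3 null epiblasts and 0.557 to 13.3 CPM (median 6.41) in the 9 WT epiblasts. The groups did not overlap, and the null mean was at least 90.4-fold lower, again against 3 counts per library (adjusted p = 0.00808). The call was lost without null replicate 2 (adjusted p = 0.0565) and with the replicate number as a block (adjusted p = 0.865). It remained when E7.5 WT replicate 3 was left out (adjusted p = 4.3e-06). E5.5 and E6.5 epiblasts of both genotypes had 0 counts of *Hes3* in all 23 libraries.

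*Notch1* had 23.3, 29.8 and 71.8 CPM in null replicates 1, 2 and 3, against a median of 168 CPM in WT. Null replicates 1 and 2 were within the E6.5 WT range, and all 3 were below the 8 high WT epiblasts. Null replicate 1 and WT replicate 3 had nearly the same value, 23.3 and 23.4 CPM. The log2 fold change was -1.89 (SE 0.60, adjusted p = 0.112). This result turned on WT replicate 3, without which it was -2.03 (SE 0.36, adjusted p = 0.00400). DESeq2, with all libraries, gave -1.91 (adjusted p = 0.00743).

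*Dll1* had 3.06, 5.25 and 54.9 CPM in the same null replicates, with WT replicate 3 at 1.04 CPM and all other WT epiblasts at 77.7 CPM or more. Its log2 fold change was -2.19 (SE 1.21, adjusted p = 0.372), and it was -4.54 (SE 1.46, adjusted p = 0.181) without null replicate 3. *Dll3* had 7.11, 6.89 and 32.7 CPM (log2 fold change -1.05, SE 0.69, adjusted p = 0.472) and *Lfng* 7.04, 4.09 and 27.4 CPM (log2 fold change -0.63, SE 0.66, adjusted p = 0.706). For both, null replicate 3 lay inside the range of the 8 high WT epiblasts and the other null epiblasts below it. Without null replicate 3 the log2 fold changes were -2.20 for *Dll3* (adjusted p = 0.197) and -1.83 for *Lfng* (adjusted p = 0.227).

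Null replicate 3 also had the highest paraxial mesoderm sum of the 3 null epiblasts, 265 CPM against 67.8 and 111 CPM. In this sum it stood next to WT replicate 7 with 272 CPM, but the pair was not matched otherwise. In null replicate 3 and WT replicate 7, *T* was 170 and 193 CPM and *Tbx6* 8.45 and 30.7 CPM. *Pou5f1* was 588 and 259 CPM, and the visceral endoderm sum 248 and 4292 CPM. Set side by side with no test, null replicate 3 and WT replicate 7 had 71.8 and 168 CPM of *Notch1*, 54.9 and 77.7 CPM of *Dll1*, 32.7 and 47.8 CPM of *Dll3*, 27.4 and 13.4 CPM of *Lfng* and 0 and 6.04 CPM of *Hes3*. *Lfng* was thus higher in the null of this pair and the other 4 genes lower.

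The other receptors and factors differed less. *Notch2* had 125, 132 and 166 CPM in null against 124 to 245 CPM in WT (log2 fold change -0.53, SE 0.16, adjusted p = 0.0820), and it passed the test, under the fold limit, without WT replicate 3 (-0.59, adjusted p = 0.000869). *Notch3* had 74.2, 83.7 and 65.6 CPM in null (log2 fold change -0.08, SE 0.09, adjusted p = 0.748). *Hes6* had 11.9, 15.2 and 9.75 CPM (log2 fold change 0.12, SE 0.25, adjusted p = 0.883), inside the WT range.

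*Hey1* and *Hes1* had higher values in null. *Hey1* was 14.4, 11.9 and 23.1 CPM against 5.45 to 18.8 CPM (median 8.67) in WT, with a log2 fold change of 0.86 (SE 0.29, adjusted p = 0.115), and WT replicate 2 was the only WT epiblast above a null one. *Hes1* was 28.3, 35.9 and 19.3 CPM against 10.7 to 25.7 CPM in WT, with a log2 fold change of 0.65 (SE 0.24, adjusted p = 0.142). Neither passed the test with all libraries, and without WT replicate 3 *Hes1* did, under the fold limit (0.73, adjusted p = 0.0386). *Hey1* was called without WT replicate 2 (1.04, SE 0.23, adjusted p = 0.0483). With voom and sample quality weights both passed under the fold limit, *Hey1* at 0.73 (adjusted p = 0.0277) and *Hes1* at 0.78 (adjusted p = 0.00831). The groups overlapped for both.

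None of 45 other pathway genes tested was called between E7.5 null and WT, with a median log2 fold change of -0.26. *Hes7* had a null median of 0.215 CPM (0 to 1.25) against 8.37 CPM in WT, with a log2 fold change of -4.26 (SE 1.29, adjusted p = 0.0968), and was called without WT replicate 3 (-4.43, adjusted p = 0.00808). Without that library 6 of the others were called, *Hes7*, *Hey2*, *Tle2*, *Maml2*, *Dll4* and *Neurl1a*, and DESeq2 with all libraries called these and *Dlk1*. *Msgn1* was the single gene of the paraxial mesoderm list called, at 0 CPM in all null epiblasts and up to 27.6 CPM in WT. The 9 visceral endoderm genes summed to 37.5 to 248 CPM in null and 373 to 4292 CPM in WT epiblasts, with no overlap and 8 or 9 of 9 detected. The 6 epiblast genes summed to 943 to 1349 CPM in null and 265 to 1282 CPM in WT epiblasts. They overlapped through WT replicate 3 alone, the other WT epiblasts reaching 615 CPM. The 5 blood genes reached 1.54 CPM in null and 2.13 CPM in WT, and the 6 extraembryonic ectoderm genes 9.84 and 12.4 CPM. The part of the visceral endoderm and epiblast genes in the values of the members was not tested.

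Set against E6.5 WT, 1 day younger, the E7.5 null epiblasts gave no call among the 9 members tested in either direction, beside 0.081% of 19749 genes higher and 0.081% lower. The largest values were those of *Dll1* (log2 fold change 3.45, SE 1.24, adjusted p = 0.407) and *Lfng* (2.25, SE 0.74, adjusted p = 0.330), both carried by null replicate 3, without which they were 1.11 and 1.05. *Notch1* was at 0.41 (SE 0.26, adjusted p = 0.738) and *Hey1* at 0.92 (SE 0.23, adjusted p = 0.133). The median over the 9 was 0.41, and *Hes3*, at 0 counts in both groups, was not tested. *Jag1* was the single gene of the other 43 called (1.01, adjusted p = 0.0398), and most ways of leaving out 1 library ended that call.

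**Figure D4:**
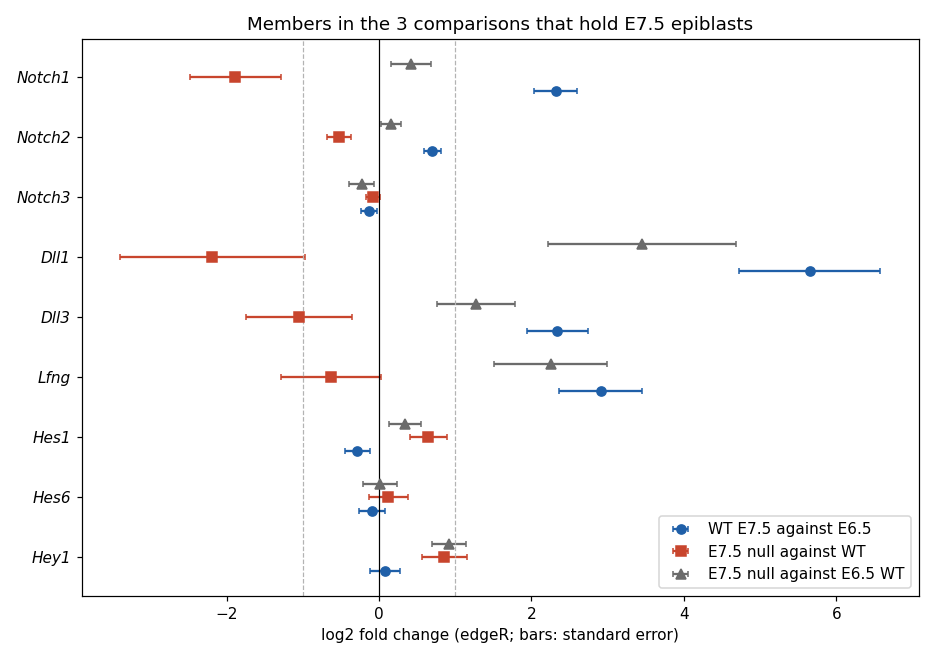
Log2 fold changes of 9 members, with standard errors, for WT E7.5 against E6.5 (blue circles), E7.5 null against E7.5 WT (red squares) and E7.5 null against E6.5 WT (grey triangles). The comparisons share libraries. *Hes3* is left out because it is at 0 counts in a group, and dashed lines mark the fold limit of 1. *Dll1* shows the widest error bars of the grey and red series, and *Notch3* and *Hes6* lie near 0 in all 3.

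The difference between the genotype effects at E7.5 and E6.5 was tested directly as an interaction. None of the 10 members was called, beside 0.185% of 22122 genes higher and 0.258% lower. *Notch1* had an interaction of -1.52 (SE 0.50, adjusted p = 0.135), *Notch2* of -0.83 (SE 0.21, adjusted p = 0.0587) and *Hey1* of 1.05 (SE 0.40, adjusted p = 0.193). *Notch1* was called without E7.5 WT replicate 3 (-1.67, adjusted p = 0.00722), and by DESeq2 with all libraries (-1.55, adjusted p = 0.0223), which also called *Hes3* (adjusted p = 1.56e-05). With voom and sample quality weights *Notch1*, *Hes3* and *Hey1* were called, *Hey1* at 1.31 (adjusted p = 0.00203), and with the E6.5 libraries under 40000000 counts *Hey1* was, at 1.495 (adjusted p = 0.0107). *Notch2* passed the test in these 4 alternatives, at -0.90 to -0.73 and thus under the fold limit. None of the 46 other pathway genes tested was called in the fit with all libraries. In the same 4 alternatives *Adam10* was called each time. *Tle4* was called by DESeq2 and without E7.5 WT replicate 3, and *Tle2* and *Dtx1* by voom with weights.

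At E6.5 itself no member was called between null and WT, beside 0% of the 17095 genes tested, of which 1414 had an unadjusted p under 0.05. The deleted gene *Stat3* was itself not called (log2 fold change -1.60, SE 0.39, adjusted p = 0.334), so a missing call here does not mean equal levels. DESeq2 called 28 genes, *Stat3* among them (DESeq2 adjusted p = 0.0191) and none of them a member. *Notch1* ran from 10.1 (median 25.2) to 35.1 CPM in null and 22.3 (median 33.7) to 36.0 CPM in WT (log2 fold change -0.39, SE 0.19, adjusted p = 0.639). *Dll1* reached 11.1 CPM in null and 6.05 CPM in WT, with medians of 1.46 and 1.21 CPM (log2 fold change 0.33, SE 1.17, adjusted p = 0.980). The ranges of null and WT overlapped for all members with a count.

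The E6.5 libraries differed in depth, replicates 1 to 3 of both genotypes having more than 40000000 counts and the others fewer. *Dll1* had a median of 0 CPM in the deep libraries of both genotypes, with highest values of 6.05 CPM in WT and 11.1 CPM in null. Its medians in the others were 1.25 CPM in WT and 1.60 CPM in null. *Lfng* had 0 to 0.772 CPM in the deep null libraries and 1.51 to 4.68 CPM in the other null ones, but overlapped in WT. *Dll3* had its highest values in deep libraries, but not every deep library was high. It was 14.0, 12.02 and 3.38 CPM in the deep WT libraries and 3.37 to 5.36 CPM in the others, and 2.13, 20.1 and 13.5 CPM in the deep null libraries and 2.33 to 3.05 CPM in the others. Among libraries under 40000000 counts, null and WT *Dll3* did not overlap, and its log2 fold change was -0.73 (SE 0.23, adjusted p = 0.143) where it was -0.02 (SE 0.51, adjusted p = 0.996) with all. *Hey1* did not overlap in these libraries either, with 5.34 to 6.67 CPM in null and 7.61 to 11.5 CPM in WT. Its log2 fold change there was -0.66 (SE 0.17, adjusted p = 0.0957) where it was -0.21 (SE 0.25, adjusted p = 0.916) with all, and neither gene passed the test. In the libraries under 40000000 counts the 9 visceral endoderm genes summed to 311 to 4525 CPM in null and 47.3 to 787 CPM in WT. *T* was 1.16 to 4.78 CPM in null and 3.78 to 59.6 CPM in WT there. The part of depth, of the visceral endoderm genes and of *T* in the values of the members was not tested.

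At E5.5, with 2 WT epiblasts, no member was called either, beside 0% of 18690 genes, with 467 at an unadjusted p under 0.05 and 14 called by DESeq2, none a member. *Hes1* had 9.21, 22.5, 18.4 and 20.8 CPM in null and 7.74 and 11.6 CPM in WT, a log2 fold change of 0.87 (SE 0.43, adjusted p = 0.999), or 1.08 without null replicate 1. *Notch3* had 2.83, 39.2, 46.7 and 30.1 CPM in null and 52.8 and 60.1 CPM in WT (log2 fold change -0.94, SE 0.87, adjusted p = 0.999), and -0.56 without null replicate 1. For *Hes1* that replicate was the null library inside the WT range, and for *Notch3* all 4 null libraries were below WT. *Stat3* itself was not called at E5.5 either (log2 fold change -1.41, SE 0.36, adjusted p = 0.999), so the missing calls of members do not mean equal levels.

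From E5.5 to E6.5 in WT epiblasts, *Hes1* was the single member called. It went from 7.74 and 11.6 CPM to 14.4 (median 21.5) to 29.0 CPM, without overlap, a log2 fold change of 1.199 (SE 0.28, adjusted p = 0.0172). Members called higher were 1 of 9 tested and lower 0 of 9, against 2.52% and 2.63% of the 20763 genes tested. Without E5.5 WT replicate 1 the call was lost (0.92, adjusted p = 0.316), the remaining E5.5 library being assumed to vary like the E6.5 group.

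*Dll3* went from 0.451 and 2.36 CPM to a median of 4.79 CPM (log2 fold change 2.22, SE 0.77, adjusted p = 0.0875, and 0.0137 by DESeq2, which called it, as did the fit with E6.5 libraries under 40000000 counts) and *Notch3* from 52.8 and 60.1 CPM to a median of 80.8 CPM (0.64, SE 0.21, adjusted p = 0.0670), both without overlap but not past the test. *Hey1* did not overlap either, with 5.41 and 4.36 CPM at E5.5 and 6.91 to 11.5 CPM at E6.5. Its log2 fold change was 0.63 to 0.99 over the alternatives, without a call. *Notch1* (0.11, SE 0.21, adjusted p = 0.840) and *Notch2* (-0.17, SE 0.15, adjusted p = 0.545) were level. Of 45 other pathway genes, *Jag1* (1.34), *Maml3* (1.45), *Dtx1* (1.92) and *Numbl* (1.16) were called higher and *Adam10* (-1.16) lower, as log2 fold changes. Visceral endoderm genes summed to 5177 and 6773 CPM in the E5.5 WT epiblasts against a median of 166 CPM at E6.5, and their part was not tested.

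EpiSCs held much *Notch3* and little *Dll1* or *Hes3*. *Notch3* had 296 and 297 CPM in WT and 291 and 288 CPM in null lines, beside 72.8 to 94.5 CPM in E7.5 WT epiblasts, and per kilobase it led the members in WT EpiSCs with 36.7 ± 0.0874 CPM per kb (SD, n = 2). *Notch1* had 116 and 160 CPM in WT and 106 and 103 CPM in null lines. *Dll1* was at 3.996 and 4.21 CPM in WT and 5.77 and 4.63 CPM in null lines, beside 0 to 6.05 CPM in E6.5 WT epiblasts, and *Hes3* at 0.120, 0.188, 0.126 and 0.0327 CPM. *Hes1* had 34.7 and 28.2 CPM in WT and 32.1 CPM on average in the 2 null lines.

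No member was called between null and WT EpiSCs, beside 0.0434% higher and 0.0627% lower of 20736 genes tested. *Notch1* had the lowest adjusted p of the members, with a log2 fold change of -0.42 (SE 0.14, adjusted p = 0.435). The null and WT lines, only 2 of each, did not overlap for *Notch1*, *Notch2*, *Notch3*, *Dll1* and *Hes6*. *Notch3* was at -0.05 (SE 0.07, adjusted p = 0.905), *Dll1* at 0.32 (SE 0.21, adjusted p = 0.761) and *Hes1* at 0.01 (SE 0.13, adjusted p = 0.996). *Lfng* had 10.7 and 10.9 CPM in WT lines and 4.78 and 10.7 CPM in null lines, with the lowest value in null line 2. None of 45 other pathway genes was called. DESeq2 called 60 genes higher and 145 lower between these lines, with *Notch4* and *Dtx1* among them and no member.

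Over the 35 epiblast libraries, the members fell into patterns that are given as descriptions, since libraries of 1 stage share their stage and depth. Pearson's r of log2 CPM was 0.867 between *Notch1* and *Hes3*, 0.785 between *Notch1* and *Lfng*, 0.756 between *Notch1* and *Dll1* and 0.859 between *Notch3* and *Hes6*. *Hes1* had no r above 0.455 with another member. Among 12193 genes compared, those closest to *Notch1* were *Ptk7* (r = 0.908), *Lrig1* (0.896) and *Fn1* (0.890). *Dll1* was closest to *Rasgrp3* (0.866), *Fn1* (0.851) and *Epha4* (0.841), *Dll3* to *Chd7* (0.895), *Ift74* (0.890) and *Btg1* (0.882), and *Lfng* to *Tcaf1* (0.887), *Phactr2* (0.875) and *Antxr2* (0.868).

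*Hes3* was closest to *Fgfr1* (0.895), *Rgma* (0.888) and *Rmrp* (0.876), *Notch2* to *Peg3* (0.908), *Kank1* (0.867) and *Neo1* (0.855), and *Notch3* to *Thbs3* (0.959), *Msi2* (0.948) and *Irs2* (0.947). *Hes6* was closest to *Rragd* (0.889), *Neb* (0.875) and *Vrtn* (0.875), *Hey1* to *Mtss1l* (0.858), *Anpep* (0.852) and *Nrxn2* (0.849), and *Hes1* to *Mycl* (0.689), *Ppp4r4* (0.686) and *Pde4b* (0.685). *Hes1* thus had the lowest leading coefficient of the 10 members.

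On build GRCm38 the members lay on 8 chromosomes, with *Notch2* and *Hey1* both on chromosome 3 and *Notch3* and *Dll1* both on chromosome 17. *Dll1*, at chr17:15367354-15376872 on the minus strand, overlaps the antisense lincRNA gene *A930024N18Rik*, which had a median of 0.728 CPM in E7.5 WT epiblasts and 0 CPM in the other epiblast groups. *Notch1*, at chr2:26457903-26516663 on the minus strand, overlaps 2 antisense transcripts with a median of 0 CPM in every epiblast group. *Notch3* overlaps the antisense gene *Gm17276*, with medians of 0 to 1.86 CPM. The strand setting of the counting was not given, so reads of these antisense pairs may not be separable. *Notch2* overlaps *Gm42819* and *Gm42820* on its own strand, which no strand setting separates. Their medians in the epiblast groups were 3.50 to 6.27 CPM and 1.25 to 3.52 CPM.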

How the data were processed

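RNA-seq libraries of 35 single epiblasts and 4 EpiSC lines were analysed. Per the labels and the study's methods, epiblast RNA was isolated with a PicoPure kit and made into libraries with the SMARTer Stranded Total RNA-Seq Kit v2, and EpiSC RNA was isolated with an RNeasy kit and made into libraries with a NEBNext kit. The submitters' processing notes name Trim Galore, HISAT2 and StringTie with build GRCm38/mm10. The annotation release and the strand setting of the counting were not given in the sources used here. The authors deposited whole-number counts per gene in 2 tables, 1 for epiblasts and 1 for EpiSCs, which were used as deposited and never tested across tables.

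From these, CPM were counts divided by the library's total and multiplied by 1000000, without further scaling. Each comparison was fitted with edgeR 4.0.16 (R 4.3.3): TMM normalization, filterByExpr (minimum count 10, minimum total 15), robust quasi-likelihood dispersions and a two-sided test with Benjamini-Hochberg adjustment over all genes tested. Only the groups compared entered a fit. A gene was called at an absolute log2 fold change over 1 and an adjusted p under 0.05, the study's limits. The study applied these limits to DESeq2, not to edgeR. The standard error is the log2 fold change divided by the square root of its F statistic. The script was tested on simulated data. The 10 members and all lists were chosen with earlier results of these data known. Genes named besides the members are those of the other pathway lists that were called, *Stat3*, and for each member the 3 genes with the highest Pearson's r over the 35 epiblast libraries (log2 CPM, TMM, prior count 2, mean log2 CPM of at least 1, members excluded). *Hes7*, *Msgn1* and the list genes *Tbx6*, *Meox1*, *Pax6* and *Sox1* were named as called genes of lists, and the marker gene *Pou5f1* and the pair of E7.5 null replicate 3 with WT replicate 7 were chosen after their values were seen.

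Alternatives were DESeq2 1.42.0, voom with sample quality weights in limma 3.58.1, edgeR with RLE size factors, no filter on low counts, genes over 1% of a library's counts left out, the replicate number as a block, all 35 epiblast libraries in 1 fit, and each library left out in turn. For the interaction, only the E7.5 libraries were left out in turn. Fits without the E6.5 libraries over 40000000 counts, and the interaction without E6.5 null replicate 1, were added after seeing the data. Columns of the counts of every library were used. Intervals from a count of 0 cover counting error only.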

Additional observations from a re-analysis of the deposited data

Results flagged for a closer look

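Values of the members were compared within 41 groups of 4 to 10 libraries, and 4 stood apart from the rest of their group by Dixon's criterion, which chance meets in about 1 in 20 groups. *Notch3* was 133 CPM in E6.5 WT replicate 1, where the next highest library had 97.5 CPM. *Dll1* was 11.1 CPM in E6.5 null replicate 3, where the next had 2.71 CPM. *Hey1* was 16.1 CPM in E6.5 null replicate 2, where the next had 7.23 CPM, and 18.8 CPM in E7.5 WT replicate 2, where the next had 10.6 CPM. The 3 libraries at E6.5 are among those with more than 40000000 counts.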

How the results depend on the processing

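Counts below are of called Notch pathway genes, the 10 members and the 47 others together. Between WT E6.5 and E7.5 there were 15, from 13 to 18 over all alternatives, and the same 5 members were called in each. For E7.5 null against WT there was 1, with 9 by DESeq2, 6 by voom with sample quality weights and 0 to 8 with 1 library left out, the 8 being without E7.5 WT replicate 3. For WT E6.5 against E5.5 there were 6, with 9 by DESeq2, 10 by voom with weights, 3 with all 35 epiblast libraries in 1 fit, 12 with E6.5 libraries under 40000000 counts only, and 1 to 10 with 1 library left out, the 1 being without E5.5 WT replicate 1 and the 10 without E6.5 WT replicate 3. For E7.5 null against E6.5 WT there was 1, with 0 by voom with weights, 0 with all 35 libraries, 0 under 40000000 counts and 0 to 1 with 1 library left out. The interaction gave 0, with 4 by DESeq2, 6 by voom with weights and 2 under 40000000 counts. Leaving out 1 E7.5 library or E6.5 null replicate 1 gave 0 to 3, the 3 being without E7.5 WT replicate 3. EpiSC null against WT gave 0, with 2 by DESeq2 and 0 to 1 with 1 line left out. E5.5 and E6.5 null against WT gave 0 in each alternative. The cause of these differences was not tested.

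Replicate numbers were not treated as pairs in the main fits. Deviations of same-numbered libraries from their group means correlated at -0.192 to 0.204, and at 0.0165 to 0.183 for E6.5 null and WT. Differently numbered libraries were not compared in this way, so these values cannot decide whether the numbers pair libraries. With the replicate block, 0 genes were called for E7.5 null against WT, 0 for WT E6.5 against E5.5 and 0 for E7.5 null against E6.5 WT, and 14 for WT E7.5 against E6.5.

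Over 3491 values of single genes under alternatives, 61 calls were lost and 42 gained, no called value changed sign, and 101 values of uncalled genes did. The 2 E5.5 WT epiblasts, 3 E7.5 null epiblasts and 2 lines per EpiSC genotype were the smallest groups.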
